A study of Mus musculus with 8 samples.

Results

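Expression of 10 genes of the integrated stress response and the unfolded protein response was measured in SN4741, a mouse neural precursor line: Atf4, Ddit3, Trib3, Asns, Chac1, Hspa5, Xbp1, Herpud1, Dnajb9 and Gdf15. The genes were chosen by name, and all 10 were found by symbol among the 31053 genes counted. Of 8 single-cell RNA-seq libraries, 4 came from cells grown at 37 °C in medium with 10% serum and 4 from cells kept for 48 hours at 39 °C in 0.5% serum, the change meant to start differentiation. Temperature and serum changed together, so their parts cannot be told apart, and "39 °C" below stands for both. All libraries came from 1 line, derived from transgenic mice and kept dividing by the heat-sensitive viral T antigen of their transgene. The study's karyotyping found this line to be polyploid and unstable.

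The integrated stress response starts when a stress kinase phosphorylates the translation factor eIF2, which slows protein synthesis in general while translation of ATF4 rises. ATF4 is a transcription factor that turns on genes of amino acid supply and, under longer stress, genes that promote cell death. The unfolded protein response is the reaction of the endoplasmic reticulum (ER) to misfolded protein, with 3 sensors (PERK, IRE1 and ATF6), of which PERK is one of the eIF2 kinases, IRE1 splices the Xbp1 transcript, and ATF6 raises ER chaperones. Counts of transcript ends hold neither the translation of ATF4 nor the splicing of Xbp1, so only transcript levels are described.

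Of 19125 cells deposited, 18351 passed the cell filters, 8550 of them at 37 °C and 9801 at 39 °C. A library held 985 to 3494 cells and 17166686 to 29633818 unique molecular identifiers (UMIs, each standing for 1 captured transcript). Median UMIs per cell ranged from 9839 to 15413 at 37 °C and from 6676 to 16665 at 39 °C, and 39 °C replicate 1 was the library with the fewest cells and the deepest. The median mitochondrial share of UMIs was 7.55% to 7.89% at 37 °C and, without overlap, 8.04% to 8.85% at 39 °C, and the 7 calls in all cells described below were also made with a limit of 10% on that share. By expression of cell-cycle genes, 20.6% to 28.7% of cells per library were assigned to G1 at 37 °C against 82.5% to 85.4% at 39 °C, and G2M cells at 39 °C numbered 29 to 187 per library. Of the 8 neural precursor markers, 4 (Sox1, Pax6, Msi1 and Fabp7) were under 1 CPM (counts per 1000000) in every library, so the label rested mainly on Vim, and the summed level of the list was 5883 to 6214 CPM at 37 °C and 5657 to 6267 CPM at 39 °C. The 8 neuronal markers summed to 165 to 193 CPM at 37 °C and 79.3 to 97.7 CPM at 39 °C. Of these, 5 (Rbfox3, Snap25, Syt1, Dcx and Elavl4) were under 1 CPM in every library, Dcx and Elavl4 at 0, and Stmn2 was the most abundant. The 8 mesenchymal markers, none at 0, summed to 2128 to 2189 CPM at 37 °C and 948 to 974 CPM at 39 °C. The 8 astrocyte and oligodendrocyte markers (Olig2 and Sox10 at 0) stayed between 7.66 and 10.2 CPM, the 6 immune markers (Cd3e at 0) between 15.5 and 35.0 CPM and mostly Cd68, the 5 endothelial markers (Cdh5 and Cldn5 at 0) between 0.574 and 1.17 CPM, and the 2 erythroid markers (Hbb-bs at 0) between 1.69 and 4.66 CPM. The part of these marker changes in the results below was not tested.

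Promoter sequence was searched for the sites that ATF4 and the ER stress factors are known to bind, and 4 of the 10 genes held a match in the 250 bases before the RefSeq start (build GRCm38.p6). The motifs, searched on both strands, were the C/EBP-ATF element TGATGNAA of ATF4 targets, found in 3.45% of all 32851 RefSeq promoters of the same length, the ER stress element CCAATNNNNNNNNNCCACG (0.113%), the second ER stress element, ATTGG and CCACG with 1 base between them (0.0304%), and the core TGACGTGG of the unfolded protein response element (0.563%), and no matches overlapped. These 4 promoters are shown because they hold the matches, which are in capitals. They are Asns (chr6:7693210-7693459, minus strand), Chac1 (chr2:119350992-119351241, plus strand), Hspa5 (chr2:34771840-34772089, plus strand) and Herpud1 (chr8:94386179-94386428, plus strand), each written 5′ to 3′ along the gene:
Asns: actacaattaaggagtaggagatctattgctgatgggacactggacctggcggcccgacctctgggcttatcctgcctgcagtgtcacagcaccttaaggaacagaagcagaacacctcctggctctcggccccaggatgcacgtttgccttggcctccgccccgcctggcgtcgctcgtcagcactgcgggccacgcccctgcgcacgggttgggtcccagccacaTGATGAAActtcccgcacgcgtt
Chac1: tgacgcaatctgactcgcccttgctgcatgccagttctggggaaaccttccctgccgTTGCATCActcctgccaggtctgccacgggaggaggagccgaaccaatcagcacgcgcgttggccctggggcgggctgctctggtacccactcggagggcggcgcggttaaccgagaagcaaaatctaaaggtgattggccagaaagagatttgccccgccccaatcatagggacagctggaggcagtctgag
Hspa5: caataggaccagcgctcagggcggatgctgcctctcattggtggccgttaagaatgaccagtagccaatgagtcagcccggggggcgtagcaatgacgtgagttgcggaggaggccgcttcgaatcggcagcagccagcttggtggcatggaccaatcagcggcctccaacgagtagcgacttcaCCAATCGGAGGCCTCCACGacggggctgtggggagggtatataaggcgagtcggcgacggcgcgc
Herpud1: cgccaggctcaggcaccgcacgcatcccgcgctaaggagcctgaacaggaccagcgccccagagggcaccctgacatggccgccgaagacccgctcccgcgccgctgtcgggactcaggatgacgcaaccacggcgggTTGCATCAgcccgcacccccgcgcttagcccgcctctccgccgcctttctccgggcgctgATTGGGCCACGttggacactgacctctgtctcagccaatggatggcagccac
The C/EBP-ATF element lay 23 to 16 bases before the start in Asns, on the minus strand 193 to 186 bases before it in Chac1, and on the minus strand 112 to 105 bases before it in Herpud1. Hspa5 held the ER stress element 65 to 47 bases before the start, and Herpud1 held the second ER stress element 52 to 42 bases before it. No match was found in the entries of Atf4, Ddit3, Trib3, Gdf15 (2 entries), Dnajb9 and Xbp1, which says only that these letters are not in this window. The RefSeq starts of Asns, Chac1, Hspa5, Ddit3, Dnajb9 and 1 of the 2 Gdf15 entries lie inside the GENCODE genes whose spans are given below, so these windows reach into them.

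The 10 genes did not move together between the temperatures. In counts summed over all kept cells of a library, Ddit3, Dnajb9 and Gdf15 rose at 39 °C, Asns, Chac1, Hspa5 and Atf4 fell, and Herpud1, Trib3 and Xbp1 did not pass the test (edgeR quasi-likelihood test with Benjamini-Hochberg adjustment over 15810 genes, adjusted p under 0.05). Over all genes tested 62% passed, 31.5% higher and 30.5% lower, so a share of 7 in 10 members is close to the background, and those that passed went in both directions. A stricter call, which asked for a change beyond 1.5 on the log2 scale and an adjusted p under 0.01, was met by 1 member (Asns) and by 5.83% of all genes. The levels at 37 and 39 °C were fully separate, with no overlap of libraries, for 7 members and for 56.7% of all genes. In sums over cells, fewer cells expressing a gene and less RNA per cell cannot be told apart. The labels do not say that replicates were separate cultures, so the p-values measure the spread between these libraries, which may be technical.

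**Figure D1:**
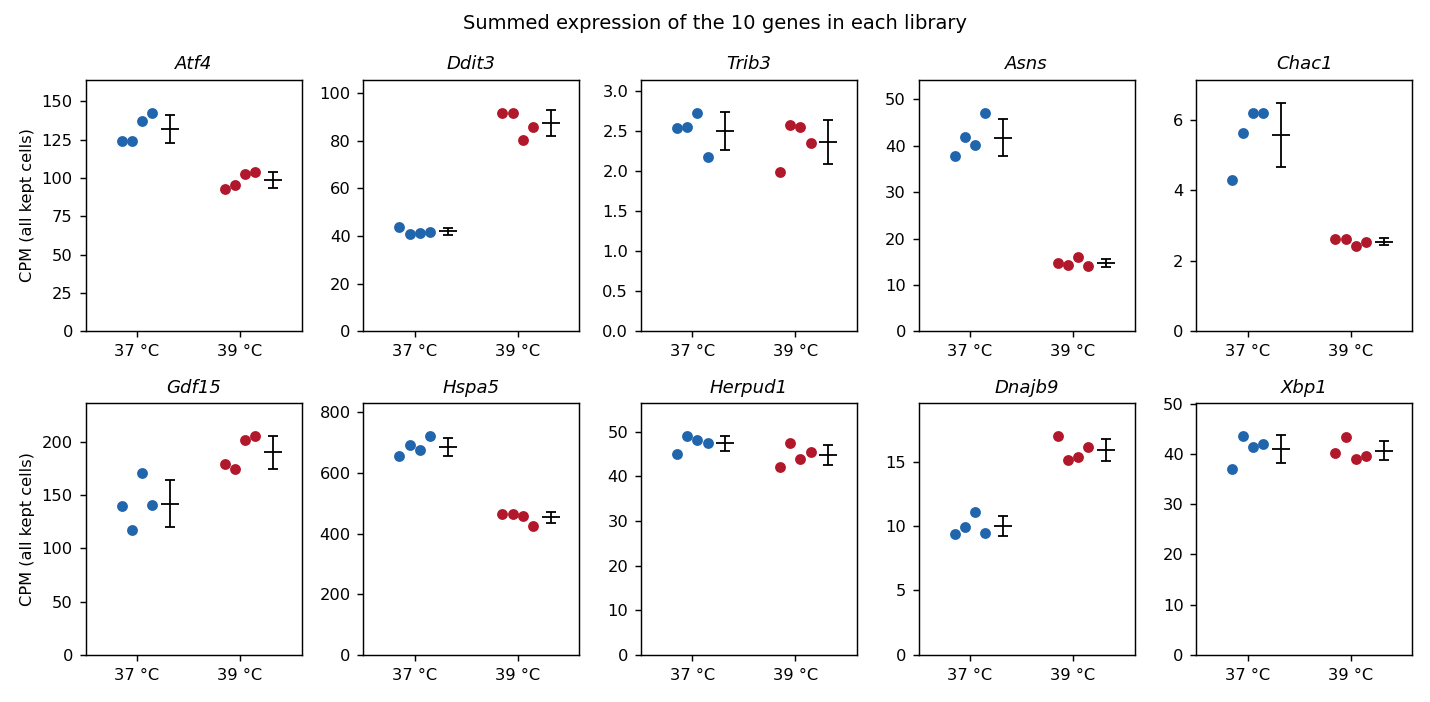
Each panel plots 1 gene, with CPM in all kept cells on a linear axis from 0 and 1 point per library (blue 37 °C, red 39 °C), and the bar beside the points is the mean with its SD over 4 libraries. The points of Ddit3 and Dnajb9 at 39 °C lie above all points at 37 °C, those of Asns, Chac1, Hspa5 and Atf4 lie below, and those of Trib3, Herpud1 and Xbp1 overlap.

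Atf4 (chr15:80255184-80257541 in GRCm38, plus strand), the transcription factor at the centre of the stress response, was measured at 124, 124, 137 and 143 CPM in replicates 1 to 4 at 37 °C and at 93.0, 95.3, 103 and 104 CPM at 39 °C. Every library at 39 °C was lower than every library at 37 °C. The log2 fold change was -0.42 ± 0.055 (SE, n = 4 and 4, edgeR adjusted p = 1.75e-06), which is 0.749 of the level at 37 °C.

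Ddit3 (chr10:127290774-127296288, plus strand) encodes CHOP, the transcription factor that promotes cell death when ER stress lasts. Its level was 44.0, 40.8, 41.2 and 41.9 CPM at 37 °C and 91.9, 91.5, 80.1 and 85.8 CPM at 39 °C, so it rose while Atf4 fell, and the groups lay far apart. The rise was 2.08-fold, a log2 fold change of 1.05 ± 0.051 (SE, n = 4 and 4, edgeR adjusted p = 1.17e-12), the highest of the 10.

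Asns (chr6:7675169-7693254, minus strand) encodes asparagine synthetase and is an ATF4 target with the element shown above. It was measured at 37.8, 42, 40.2 and 47.2 CPM at 37 °C and at 14.7, 14.2, 16.0 and 14.0 CPM at 39 °C. All 4 libraries at 39 °C were far below the lowest at 37 °C, and the log2 fold change of -1.5 ± 0.068 (SE, n = 4 and 4, edgeR adjusted p = 4.72e-13) was the largest fall of the 10, to 0.353 of the level at 37 °C.

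Chac1 (chr2:119351229-119354381, plus strand), an enzyme that breaks down glutathione and lies downstream of ATF4 and CHOP, was a low gene with 46 to 177 UMIs per library. Its level was 4.28, 5.62, 6.20 and 6.18 CPM at 37 °C and 2.61, 2.61, 2.41 and 2.54 CPM at 39 °C. The groups did not overlap, although 37 °C replicate 1 lay below the other libraries of its group, and the log2 fold change was -1.13 ± 0.13 (SE, n = 4 and 4, edgeR adjusted p = 1.90e-07).

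Trib3 (chr2:152337422-152344032, minus strand), a pseudokinase induced by ATF4 and CHOP that dampens both, was the lowest in UMIs, with 35 to 78 per library. Its level was 2.54, 2.56, 2.73 and 2.18 CPM at 37 °C and 1.99, 2.57, 2.55 and 2.35 CPM at 39 °C. The groups overlapped, and the log2 difference of -0.06 ± 0.13 (SE, n = 4 and 4, edgeR adjusted p = 0.713) was within its error.

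Hspa5 (chr2:34771970-34777547, plus strand) encodes BiP, an abundant ER chaperone that also keeps the stress sensors inactive. It was measured at 654, 692, 674 and 721 CPM at 37 °C and at 464, 464, 459 and 426 CPM at 39 °C. Every library at 39 °C was lower, with a log2 fold change of -0.60 ± 0.052 (SE, n = 4 and 4, edgeR adjusted p = 5.84e-09), or 0.662 of the level at 37 °C.

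Dnajb9 (chr12:44205559-44210326, minus strand) encodes ERdj4, a BiP co-chaperone and target of spliced XBP1 that holds IRE1 in its inactive state. Its level moved the other way, from 9.39, 9.96, 11.1 and 9.48 CPM at 37 °C to 17.0, 15.1, 15.3 and 16.2 CPM at 39 °C. The groups did not overlap, and the rise was 1.59-fold (log2 0.67 ± 0.068, SE, n = 4 and 4, edgeR adjusted p = 6.14e-08).

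Herpud1 (chr8:94386438-94395377, plus strand), a membrane protein of ER-associated degradation whose promoter above holds both kinds of element, was measured at 45, 49.0, 48.1 and 47.6 CPM at 37 °C and 42.2, 47.5, 44.0 and 45.6 CPM at 39 °C. The groups overlapped (log2 -0.08 ± 0.049, SE, n = 4 and 4, edgeR adjusted p = 0.169), and of 21 alternatives the difference passed only without 37 °C replicate 1 (adjusted p = 0.042). Xbp1 (chr11:5520659-5525893, plus strand), the transcription factor made active by IRE1 splicing, was at 37.0, 43.5, 41.4 and 42 CPM and at 40.3, 43.3, 39.1 and 39.7 CPM. Its groups overlapped almost fully (log2 -0.01 ± 0.055, SE, n = 4 and 4, edgeR adjusted p = 0.869).

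Gdf15 (chr8:70629393-70632456, minus strand), a secreted stress hormone induced by CHOP and ATF4 and also a p53 target, was at 139, 117, 171 and 141 CPM at 37 °C and at 179, 174, 201 and 205 CPM at 39 °C. The lowest library at 39 °C was only just above the highest at 37 °C, which was replicate 3. The rise was 1.34-fold (log2 0.42 ± 0.083, SE, n = 4 and 4, edgeR adjusted p = 1.99e-04), with the largest standard error of the 3 members that rose.

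Since the makeup by phase was so unlike at 37 and 39 °C, the same test was run within cells assigned to 1 phase. Among G1 cells, Ddit3, Dnajb9 and Gdf15 rose and Asns, Chac1, Hspa5, Herpud1 and Atf4 fell, 8 of 10 where 47.1% of 14712 genes passed (24.8% higher, 22.4% lower). In S cells 3 rose and 4 fell, where 43.5% of all genes passed (20.1% higher, 23.4% lower), and in G2M cells likewise, where 29.7% did (13.2% higher, 16.5% lower). The directions of the 7 genes named for all cells were the same in each phase. Libraries did not overlap for 8 members in G1, 5 in S and 6 in G2M cells, and for 44%, 40.5% and 33.2% of all genes. No member in G1 or S cells met the stricter call, met by 2.54% and 2.27% of all genes, and Asns met it in G2M cells, as 1.96% of all genes did.

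The log2 fold change of Ddit3 was 0.72 ± 0.060 in G1, 0.89 ± 0.094 in S and 1.01 ± 0.10 in G2M cells (SE, n = 4 and 4), with edgeR adjusted p of 1.10e-09, 4.12e-09 and 4.94e-10. In G1 cells its level was 58.7, 55.2, 53.6 and 54.6 CPM at 37 °C and 97.6, 96.0, 85.0 and 88.6 CPM at 39 °C. The 2 sets of libraries stayed apart in every phase, with a smaller fold in G1 cells than the 2.08-fold of all cells, namely 1.65-fold.

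For Asns the log2 fold change was -1.27 ± 0.085 in G1, -1.39 ± 0.11 in S and -1.67 ± 0.18 in G2M cells (SE, n = 4 and 4, edgeR adjusted p of 3.10e-11, 5.66e-12 and 2.31e-09). In G1 cells it was at 34.3, 37.4, 29.5 and 40.0 CPM at 37 °C and at 14.6, 14.2, 16.0 and 13.4 CPM at 39 °C, again with no overlap. For Hspa5 it was -0.34 ± 0.052, -0.44 ± 0.062 and -0.67 ± 0.098 (SE, n = 4 and 4, edgeR adjusted p of 8.58e-06, 7.01e-07 and 1.18e-06), and in G1 cells all 37 °C libraries (543 to 569 CPM) were above all 39 °C libraries (414 to 456 CPM).

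Atf4 changed by -0.21 ± 0.058 in G1, -0.56 ± 0.076 in S and -0.50 ± 0.089 in G2M cells (SE, n = 4 and 4, edgeR adjusted p of 0.00463, 3.63e-07 and 2.90e-05). Its G1 libraries were 108 to 126 CPM at 37 °C and 95.4 to 107 CPM at 39 °C, close but without overlap. In the same order of phases, Dnajb9 rose by 0.55 ± 0.10, 0.46 ± 0.14 and 0.73 ± 0.21 (SE, n = 4 and 4, edgeR adjusted p of 1.12e-04, 0.00833 and 0.00750), and it lost the S call without 39 °C replicate 2 and the G2M call without 39 °C replicate 3. Gdf15 rose by 0.47 ± 0.089, 0.46 ± 0.10 and 0.56 ± 0.10 (SE, n = 4 and 4, edgeR adjusted p of 1.23e-04, 4.10e-04 and 3.60e-05), and its libraries overlapped in S and G2M cells.

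Chac1 changed by -1.18 ± 0.19 in G1 (edgeR adjusted p = 1.90e-05), -0.62 ± 0.25 in S (adjusted p = 0.0441) and -1.26 ± 0.42 in G2M cells (adjusted p = 0.0182, SE, n = 4 and 4 each). The S call was lost under 9 of 13 alternatives, 5 of them leaving out 1 library (37 °C replicate 2 or 4, or 39 °C replicate 2, 3 or 4, adjusted p up to 0.158), and the G2M call without 39 °C replicate 3 (adjusted p = 0.126). Herpud1, which had not passed in all cells, fell by 0.21 ± 0.063 in G1 cells (SE, n = 4 and 4, edgeR adjusted p = 0.00741), from 50.1 to 57.8 CPM at 37 °C to 42.6 to 48.5 CPM at 39 °C.

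The 3 values of Trib3 by phase were -0.19 ± 0.25, -0.20 ± 0.37 and -0.21 ± 0.51 on the log2 scale (SE, n = 4 and 4), all within their errors. Xbp1 differed by -0.14 ± 0.062 in G1, 0.11 ± 0.093 in S and -0.26 ± 0.13 in G2M cells (SE, n = 4 and 4, edgeR adjusted p of 0.0614, 0.342 and 0.149). None of these Xbp1 values passed, and the G1 value passed under 7 of 21 alternatives, among them without 37 °C replicate 1 (adjusted p = 0.0182) and without 39 °C replicate 2 (0.040).

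**Figure D2:**
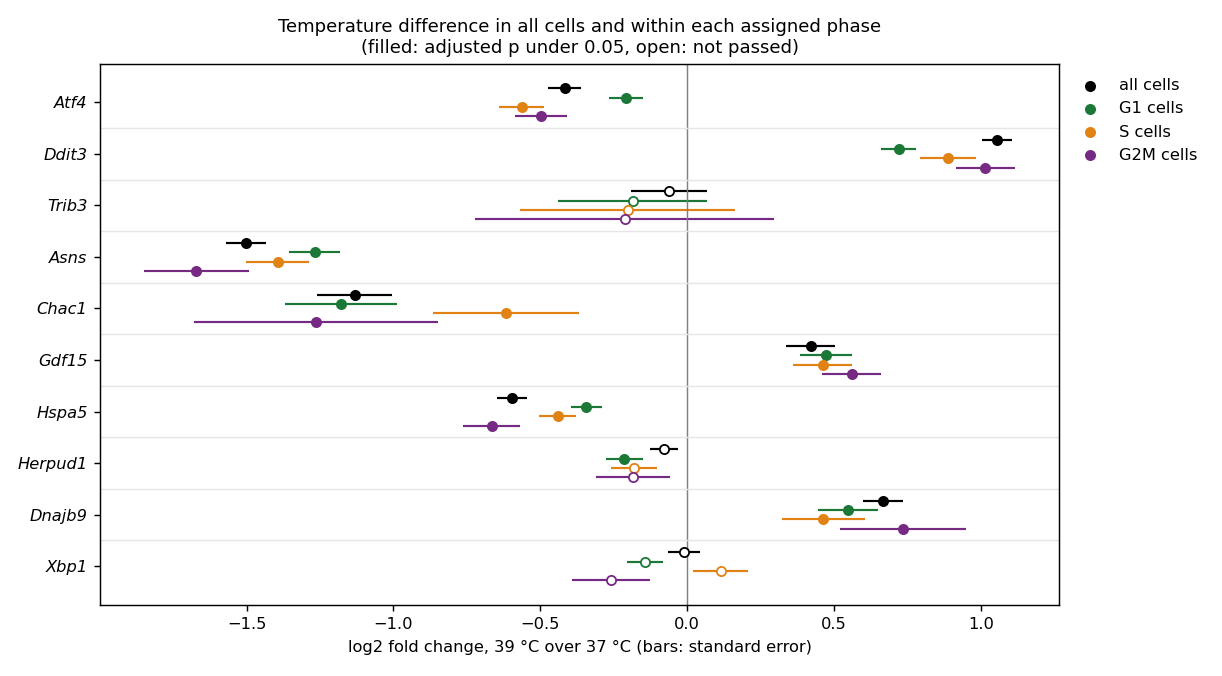
The log2 fold change of each gene, 39 °C over 37 °C, is plotted with its standard error for all cells, G1, S and G2M cells, filled where the adjusted p was under 0.05. Ddit3 lies right of 0 in every set of cells (0.72 to 1.05) and Asns left of it (-1.27 to -1.67), while Trib3 is open throughout with error bars that widen to 0.51 in G2M cells.

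Phase itself was compared within each temperature, with the library as a block, to see how the members follow the cell cycle. At 37 °C, 4 members differed between S and G1 cells and 8 between G2M and G1 cells, where 45.4% and 44.8% of 14205 genes passed. At 39 °C, 5 and 4 did, where 36.6% and 26.1% of 14009 genes passed. Hspa5 was higher and Ddit3 lower in S cells at both temperatures.

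Hspa5 at 37 °C averaged 571 ± 12 CPM in G1, 838 ± 28 in S and 618 ± 33 in G2M cells (SD, n = 4), and each library was highest in S. The S to G1 difference was 0.58 ± 0.023 on the log2 scale at 37 °C and 0.49 ± 0.040 at 39 °C (SE, n = 4, edgeR adjusted p of 2.06e-40 and 6.01e-33). At 39 °C it averaged 439 ± 17, 619 ± 27 and 378 ± 84 CPM (SD, n = 4), with 39 °C replicate 1, which held 29 G2M cells, at 258 CPM in G2M.

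Ddit3 at 37 °C averaged 56.7 ± 2.2 CPM in G1, 31.6 ± 2.0 in S and 46.4 ± 1.2 in G2M cells (SD, n = 4), and S was the lowest phase of every library at both temperatures. The S to G1 difference was -0.82 ± 0.059 at 37 °C and -0.64 ± 0.067 at 39 °C on the log2 scale (SE, n = 4, edgeR adjusted p of 1.78e-22 and 2.13e-20). At 39 °C the means were 91.2 ± 5.7, 58.0 ± 11 and 97.4 ± 17 CPM (SD, n = 4), so that the S level at 39 °C was close to the G1 level at 37 °C.

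Among the other members at 37 °C, Asns was higher in S than in G1 (log2 0.46 ± 0.062, SE, n = 4, edgeR adjusted p = 6.38e-10), and Atf4 was higher in S (0.13 ± 0.037, adjusted p = 0.00201) and more so in G2M cells (0.33 ± 0.036, adjusted p = 7.09e-13). Between G2M and G1 cells the difference was 0.20 ± 0.039 for Gdf15 and -0.36 ± 0.057 for Herpud1 (SE, n = 4, edgeR adjusted p of 7.83e-06 and 1.14e-07). Dnajb9 (-0.35 ± 0.12), Ddit3 (-0.27 ± 0.055) and Xbp1 (-0.25 ± 0.059) were also lower in G2M than in G1 cells, and Asns (0.15 ± 0.065) and Hspa5 (0.13 ± 0.023) higher. The Asns and Dnajb9 calls in G2M were the least firm of these, lost in 4 and 3 of 8 alternatives, and the Atf4 difference in S was 0.073 and did not pass with library totals as the only scaling (adjusted p = 0.10). For Asns and Dnajb9, 37 °C replicates 3 and 4 each decided the call (adjusted p of 0.184 and 0.055 for Asns and 0.149 and 0.0681 for Dnajb9 without them).

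At 39 °C, Asns and Chac1 were higher in S than in G1 cells (0.35 ± 0.13 and 0.69 ± 0.29, SE, n = 4, edgeR adjusted p of 0.0169 and 0.0434), and Atf4 was lower (-0.22 ± 0.059, adjusted p = 0.00112). Gdf15 was again higher in G2M cells (0.30 ± 0.058, adjusted p = 3.85e-06), while Hspa5 (-0.14 ± 0.050), Herpud1 (-0.32 ± 0.12) and Xbp1 (-0.34 ± 0.13) were lower (adjusted p of 0.0176, 0.0342 and 0.0332). These last 3 calls were lost in 5, 6 and 7 of 8 alternatives, with adjusted p up to 0.451 (without 39 °C replicate 1), 0.363 (without replicate 4) and 0.202 (without replicate 2). Of the S calls, that of Asns was lost without 39 °C replicate 4 (0.149), that of Atf4 without replicate 3 (0.131), and that of Chac1 without replicate 1, 2 or 4 (0.0526 to 0.251).

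Whether the temperature difference itself depended on phase was tested as an interaction, which 9.95% of 14172 genes passed for S and 7.06% for G2M cells. Atf4 passed for both, with a larger fall in S than in G1 cells (interaction -0.32 ± 0.069 on the log2 scale, SE, n = 4 and 4, edgeR adjusted p = 6.08e-04) and in G2M than in G1 cells (-0.27 ± 0.083, adjusted p = 0.0277). The Hspa5 term for G2M was -0.25 ± 0.060 (adjusted p = 0.00306), the Ddit3 term for G2M was 0.34 ± 0.10 (adjusted p = 0.0280), and the Xbp1 term for S was 0.31 ± 0.098 (adjusted p = 0.0310). The Atf4 term for S and the Hspa5 term kept their calls in all 12 alternatives, while the Atf4 and Ddit3 terms for G2M and the Xbp1 term lost theirs in 6, 4 and 6 of 12. The Atf4 term for G2M was lost without 39 °C replicate 3 or 4 (adjusted p of 0.123 and 0.121). That term was also lost under every alternative scaling, filter and tool (adjusted p up to 0.162). The Ddit3 term was lost without 37 °C replicate 1 or 4 or 39 °C replicate 1 or 2 (up to 0.187). The Xbp1 term was lost without any 1 library except 37 °C replicate 2 and 39 °C replicate 4 (up to 0.271).

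**Figure D3:**
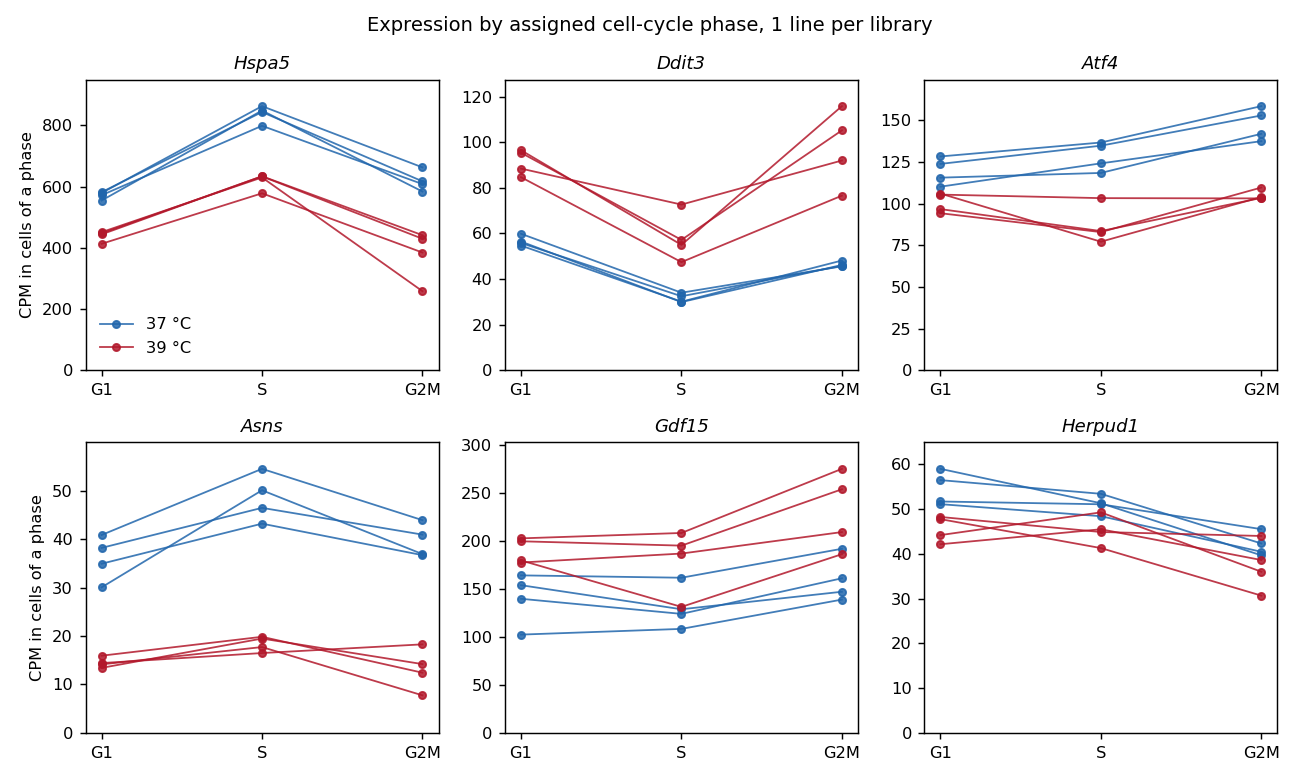
CPM of 6 members in cells assigned to G1, S and G2M are joined by 1 line per library (blue 37 °C, red 39 °C), on linear axes from 0. Hspa5 peaks and Ddit3 dips in S cells in both colours, Atf4 climbs toward G2M at 37 °C (119.5 to 148 CPM on average) and not at 39 °C (101 to 105 CPM), and the G2M points at 39 °C rest on 29 to 187 cells.

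Across cells, the share with at least 1 UMI was compared after thinning every cell to 5000 UMIs, which left out 668 cells at 37 °C and 1668 at 39 °C as shallower. Of the latter, 1009 came from 39 °C replicate 4 and 36 from 39 °C replicate 1, so the shares rest on unlike parts of the libraries. Ddit3 was seen in 18.4%, 18.1%, 16.8% and 16.0% of cells at 37 °C and in 35.6%, 34.0%, 31.5% and 32.0% at 39 °C. Its mean was 0.194 to 0.221 UMIs per thinned cell at 37 °C and 0.424 to 0.487 at 39 °C. At such low means this share follows the mean, so more cells expressing Ddit3 and more RNA per cell cannot be told apart. Asns fell from 16.3% ± 1.3 to 6.77% ± 0.55, Hspa5 from 86.6% ± 1.2 to 77.4% ± 1.6, Atf4 from 43.8% ± 3.1 to 38.1% ± 1.1 and Chac1 from 2.44% ± 0.38 to 1.32% ± 0.22, while Dnajb9 rose from 5.08% ± 0.78 to 7.84% ± 1.2 (SD, n = 4). In these 6 genes the libraries did not overlap, each with a two-sided exact permutation p of 0.0286, the smallest that 70 assignments can give, and an adjusted p of 0.0476 over the 10 members. How many of all genes would not overlap in this measure was not computed, and in summed counts 56.7% did not. These calls needed at least 6 members at that p, and leaving out any library but 37 °C replicate 3 ended all 6 (smallest adjusted p 0.0571).

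For Gdf15 the shares overlapped (33.5% ± 3.1 and 35.7% ± 2.7, exact permutation p = 0.343, adjusted p = 0.429, SD, n = 4) although its summed level rose. The share of cells with at least 2 Gdf15 UMIs was 12.6% to 18.3% at 37 °C and 19.3% to 22.7% at 39 °C, with no overlap. That difference did not pass either (exact permutation p = 0.0286, adjusted p = 0.0571). Trib3 (1.12% and 1.02%), Herpud1 (20.1% and 20.1%) and Xbp1 (17.1% and 17.8%) did not differ beyond their spread, with adjusted p from 0.429 to 1. Without thinning, no member passed (smallest adjusted p 0.143, with 2 members at an unadjusted p of 0.0286), and the direction of Gdf15, Herpud1 and Xbp1 turned. With 1 cell line in every droplet there was no cell type without these genes to give a background share for free RNA.

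**Figure D4:**
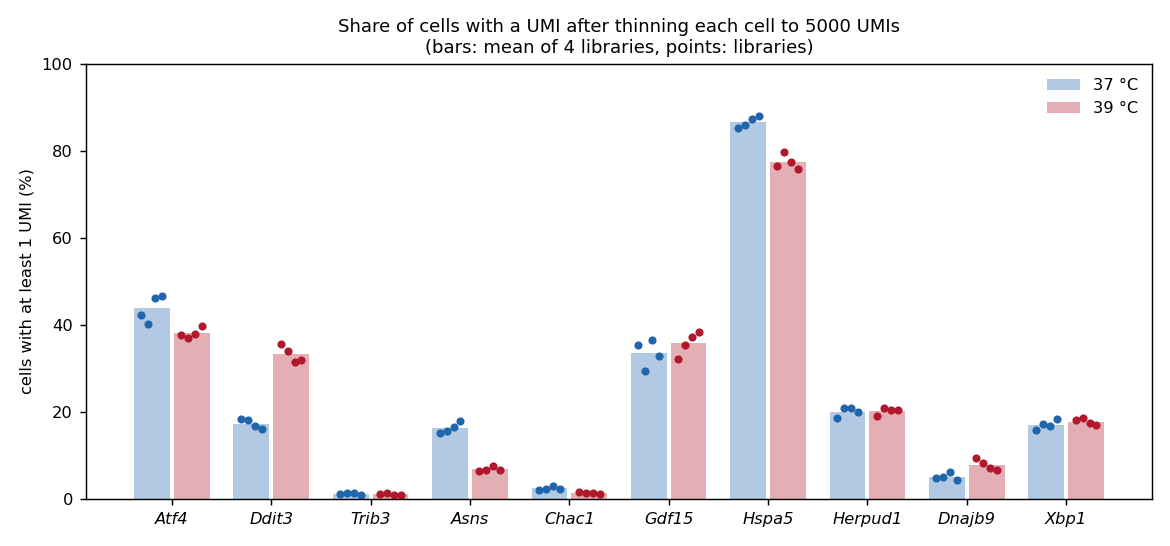
The share of cells with at least 1 UMI of each gene after thinning to 5000 UMIs is shown as bars (mean of 4 libraries) with 1 point per library, blue for 37 °C and red for 39 °C. The bars of Ddit3 stand at 17.3% and 33.3%, those of Asns at 16.3% and 6.77%, and those of Herpud1 are level at 20.1%.

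The spread between cells was widest for Gdf15 and Hspa5, which were also the members with the highest means per cell at 39 °C. The ratio of variance to mean of the thinned counts, near 1 for pure counting noise, was 2.45 to 5.50 over the libraries for Gdf15 and 2.72 to 3.54 for Hspa5, and 0.968 to 1.58 for the other 8. A thinned cell held up to 57 UMIs of Gdf15 and 32 of Hspa5, against 11 of Ddit3 and 7 of Atf4. At 37 °C the 10% of cells with most Gdf15 held 57.5% of its UMIs, against 40.2% for Atf4. The mean per cell was alike for both, at 0.568 to 0.799 UMIs for Gdf15 and 0.560 to 0.671 for Atf4. The same share was 57.0% for Herpud1, 63.4% for Xbp1, 65.5% for Ddit3 and 67.0% for Asns. Those genes had only 0.178 to 0.246 UMIs per cell, and sparse counts raise this share, so they are no like comparison.

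Members hardly varied together from cell to cell in these sparse counts, and the values are given as a description. The mean within-library Pearson r of Hspa5 with Xbp1 was 0.12 (0.086 to 0.165 over 8 libraries), and that of Atf4 with Ddit3 was 0.026, in counts that share the depth and culture of a library. Cells with Trib3 at 37 °C also had Chac1 in 11.6% of cases, against 2.34% of cells without Trib3, and at 39 °C in 4.24% against 1.29%, higher in 6 of 8 libraries. Asns was seen in 27.9% of cells with Trib3 and 16.2% of those without at 37 °C, higher in 8 of 8 libraries over both temperatures. Trib3 was seen in only 1.12% of thinned cells at 37 °C and 1.02% at 39 °C, so these shares rest on few cells per library.

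Without thinning, 10 to 16 cells per library at 37 °C and 2 to 6 at 39 °C held both Chac1 and Trib3. Ddit3 was present in 8 to 12 of them per library at 37 °C and in 1 to 4 at 39 °C, from 11 of 12 cells in 37 °C replicate 1, where 836 of 2473 cells had Ddit3, to 1 of 4 cells in 39 °C replicate 2, where 1373 of 2743 had it. Depth was not matched in these counts, and deeper cells show more of every gene.

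Of 6392 genes with a mean of at least 0.1 UMI per thinned cell, those whose counts followed the sum of Hspa5, Xbp1, Herpud1 and Dnajb9 most closely were Calr (mean r 0.29, 0.26 to 0.32 over 8 libraries), Manf (0.27) and Hsp90b1 (0.26), followed by Nes, Anxa2, Pdia6, Creld2 and Tpm1 (0.18 to 0.14). That sum was almost that of Hspa5 alone (mean r 0.94 with it, against 0.29 for Xbp1, 0.25 for Herpud1 and 0.11 for Dnajb9), so these are neighbours of Hspa5. Calr and Hsp90b1 encode ER chaperones, Manf a secreted ER stress factor, and Pdia6 a protein disulfide isomerase. For Gdf15 they included Mdm2 (0.17), the p53 regulator, Neat1, Btg2, Pmm1, Rpl24, Serpine2 and Ftl1 (0.14 to 0.13). For the sum of Atf4, Ddit3, Trib3, Asns and Chac1 no gene went above 0.062, reached by Eif1, with Ppp1r14b, Nupr1, Gars, Pabpc1, BC022687, Krt7 and Hist1h1c at 0.054 to 0.051, too weak to read. With a cell's mitochondrial share, Gdf15 correlated at 0.085 (0.052 to 0.11) and Atf4 at -0.074 (-0.11 to -0.047) over the 8 libraries, and Hspa5 at -0.16 on average at 37 °C and 0.0053 at 39 °C, all weak in these sparse counts.

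Cells left out for a mitochondrial share over 15% had higher pooled levels of 4 members than kept cells at both temperatures. Hspa5 was at 1307 CPM in 170 such cells at 37 °C and 735 CPM in 164 at 39 °C, against 677 and 457 CPM in kept cells. Gdf15 was at 299 and 257 CPM against 141 and 193 CPM. Dnajb9, on 8 and 17 UMIs, was at 12.9 and 23.8 CPM against 9.87 and 15.9 CPM. Herpud1, on 30 and 33 UMIs, was almost level, at 48.4 and 46.1 CPM against 46.9 and 45.5 CPM. Lower at both temperatures were Atf4 (87.2 and 79.7 against 131 and 100 CPM), Asns (33.9 and 8.39 against 41.3 and 14.9 CPM), Chac1 and Trib3. Chac1 and Trib3 had at most 1 UMI in these cells. Ddit3 and Xbp1 were lower at 37 °C and higher at 39 °C. Pooled CPM over such few cells carry no replicate error.

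The genes around the members were grouped by role, and 94 genes over 8 lists passed in all cells. The largest falls were in amino acid supply, while several ATF4-linked transcription factors and stress genes rose. The counts of each list are to be read beside those of all genes tested, of which 62% passed in all cells (31.5% higher, 30.5% lower). In G1 cells 47.1% did (24.8% higher, 22.4% lower), so many passing genes in a list are no trait of that list. Median log2 fold changes are given beside the 0.02 of all genes tested in all cells and 0.04 in G1 cells. The lists were chosen with earlier results of these data known.

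Of 24 ATF4-linked amino acid genes, 17 fell and 5 rose, with a median of -0.68 (in G1 cells 15 and 5, median -0.32). Phgdh, the first enzyme of serine synthesis, went from 242 ± 36 to 27.6 ± 1.9 CPM (SD, n = 4), a change of -3.13 ± 0.088 on the log2 scale (SE, edgeR adjusted p = 4.10e-16), and Psat1, the next enzyme of that path, from 111 ± 8.1 to 16.6 ± 0.93 CPM (log2 -2.73 ± 0.061, adjusted p = 2.96e-17). Mthfd2, of mitochondrial folate metabolism, fell by 2.81 ± 0.083 (adjusted p = 9.03e-16). These falls were larger than that of Asns. The 5 that rose were the amino acid transporters Slc7a11 (log2 1.54), Slc7a3 (1.38), Slc1a4 (1.06) and Slc3a2 (0.61) and the tRNA synthetase gene Cars (0.41), named after their values were seen. Slc7a3 was at only 0.268 and 0.707 CPM and did not pass in G1 cells (adjusted p = 0.143), and Slc7a11, at 2.21 and 6.30 CPM, differed by 0.83 in G1 cells.

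Of 12 tested ATF4-linked transcription factors and stress genes (Fgf21 had too few counts), 7 rose and 4 fell, with a median of 0.25 (5 and 4 in G1 cells, median 0.08). Cebpb, a partner of CHOP and ATF4, rose from 163 ± 13 to 286 ± 14 CPM (log2 0.82 ± 0.057, SE, n = 4 and 4, edgeR adjusted p = 2.60e-10). Nupr1 fell by 1.38 ± 0.067 and Atf5, a factor close to ATF4, by 0.81 ± 0.062 (adjusted p of 1.16e-12 and 1.01e-09). Of the 13 stress kinases and eIF2 factors, 3 rose and 7 fell (median -0.16, in G1 cells 2 and 3, median -0.06). Ppp1r15a, which encodes GADD34 that reverses eIF2 phosphorylation and is itself a CHOP target, rose by 0.75 ± 0.049, and Eif2b1 and Eif2s1, subunits of the eIF2 machinery, fell by 0.61 ± 0.060 and 0.48 ± 0.046 (SE, n = 4 and 4, edgeR adjusted p of 9.85e-11, 3.39e-08 and 2.12e-08).

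Of the 17 ER chaperones and folding enzymes, 13 fell and 2 rose with a median of -0.39 (10 and 2 in G1 cells, median -0.20), the direction of Hspa5. Manf fell by 0.94 ± 0.056, Calr by 0.72 ± 0.054 and Hsp90b1 by 0.57 ± 0.053 on the log2 scale (SE, n = 4 and 4, edgeR adjusted p of 2.85e-11, 5.99e-10 and 1.62e-08), and the risers were Sil1 (0.25) and Canx (0.14), named after their values were seen. Of the 23 genes of ER-associated degradation and translocation, 14 fell and 2 rose, median -0.24 (13 and 2 in G1 cells, median -0.17), led by Sec24d, a vesicle coat protein (-0.97 ± 0.11), and the translocon subunits Ssr1 (-0.68 ± 0.050) and Ssr2 (-0.67 ± 0.053). Of the 8 ER stress sensors and activators, 2 rose and 2 fell in both sets of cells (medians 0.02 and 0.01), with Mbtps2, a protease that frees ATF6, at 0.30 ± 0.063, Creb3 at -0.18 ± 0.047 and Atf6 at -0.12 ± 0.051 (edgeR adjusted p of 3.59e-04, 0.00198 and 0.0415). In G1 cells Creb3 and Creb3l2 were those that fell, and Atf6 did not pass (edgeR adjusted p = 0.561). Ern1, which encodes IRE1, rose by 0.81 at under 10 CPM and was named after its value was seen. So was Eif2ak3, which encodes PERK and was counted with the kinases. It rose by 0.45 in all cells, also at under 10 CPM and with overlap of libraries (edgeR adjusted p = 0.00262).

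Of 7 mitochondrial stress chaperones and proteases, 5 fell and none rose, median -0.25 (6 in G1 cells, median -0.19), among them Hspd1 (-1.24 ± 0.055), Hspe1 (-0.45 ± 0.061) and Hspa9 (-0.44 ± 0.048). Of 12 p53 targets, listed because Gdf15 is one as well, 11 rose and none fell, median 0.60 (10 and none in G1 cells, median 0.51). Btg2 rose by 1.2 ± 0.081, Trp53inp1 by 1.01 ± 0.058 and Cdkn1a, which encodes the cell-cycle inhibitor p21, by 0.81 ± 0.062 (SE, n = 4 and 4, edgeR adjusted p of 1.55e-10, 1.55e-11 and 1.15e-09). Gdf15 at 0.42 lay within the wide range of this list (0.06 to 1.2), but so did Ddit3 at 1.05 and Dnajb9 at 0.67. A part of p53 in the rise of Gdf15 was not tested.

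**Figure D5:**
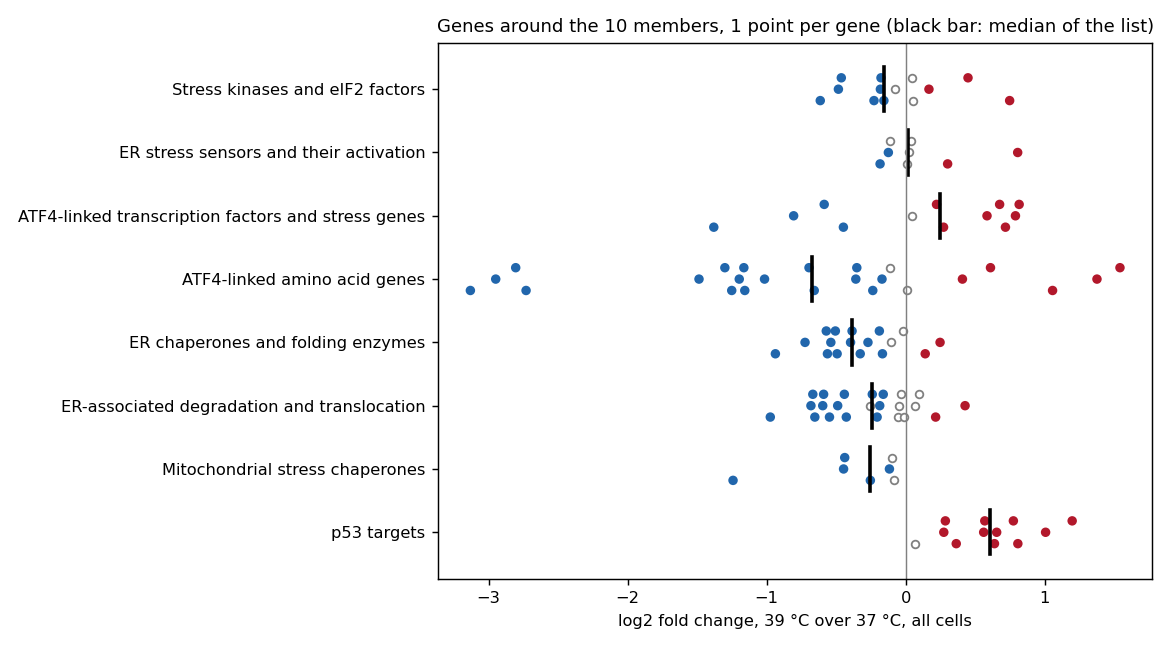
Each point is the log2 fold change of 1 gene between the temperatures in all cells, by list, coloured red or blue where the adjusted p was under 0.05 and open where it was not, and the black bar is the median of the list. Medians run from -0.68 for the amino acid genes to 0.60 for the p53 targets, and the points of the amino acid list spread from -3.13 to 1.54.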

How the data were processed

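Droplet single-cell RNA-seq of SN4741 cells gave 8 libraries. The authors aligned the reads to mm10 (GRCm38) with Cell Ranger 3.0.1, per the labels, and deposited UMI counts per gene and cell as whole numbers with no normalization. Cells with over 15% mitochondrial UMIs (334), under 200 genes (29) or over 6000 genes (440) were left out. No doublet caller was run, and an alternative left out the 5% of cells with most UMIs. At most 5 barcodes were shared by a pair of libraries, and libraries of 1 temperature differed by more than sampling would give (chi-square divided by its degrees of freedom, 2.85 to 21.4). Phases came from Seurat 5.3.0 (42 of 43 S and 52 of 54 G2M genes found, no member among them).

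Counts were summed per library, and genes averaging 1 count or more over the libraries were tested in edgeR 4.0.16 (R 4.3.3, TMM, glmQLFit, glmQLFTest) on temperature, or on phase with the library as a block. CPM are per 1000000 counts of tested genes on TMM-scaled totals, and standard errors are the fold change over the square root of F. Shares were compared by exact permutation in Python 3.11.15. In simulated counts modelled on those of all cells (15593 genes), 145 of 200 genes given a log2 change of 1 were recovered, with 21 false calls. All other genes were given no change there, while 62% of genes passed in the data, so these rates may not carry over. Named genes were the 10 members, up to 3 passing genes per list with the largest fold changes at 10 CPM or more in the higher group, and the 8 nearest genes across cells, of which 1 is not reported here. Members and lists were chosen with earlier results of these data known. Gene positions are from GENCODE M21, and promoters from RefSeq. Alternatives covered scaling, filters, DESeq2 1.42.0, blocking on replicate number, cell limits, depth and leaving out each library.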

Additional observations from a re-analysis of the deposited data

Results flagged for a closer look

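Among 40 groups of 4 libraries tested with Dixon's ratio (10 members, 2 temperatures, all cells and G1 cells), 3 held a library far from the rest, and chance gives about 1 in 20. Hspa5 in all cells at 39 °C was 426 CPM in replicate 4, below the 459 to 464 CPM of the others, and this library also had the lowest median UMIs per cell. In G1 cells at 37 °C, Chac1 was 8.10 CPM in replicate 3 against 4.46 to 4.93 CPM, and Xbp1 was 41.4 CPM in replicate 1 against 46.5 to 47.0 CPM. The Hspa5 fall and the Chac1 fall kept their calls without those libraries.

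The temperature difference of 4 members differed between phases by the interaction test in edgeR (log2 scale, adjusted over 14172 genes). The terms for S against G1 cells were -0.32 for Atf4 and 0.31 for Xbp1. The terms for G2M against G1 cells were -0.27 for Atf4, 0.34 for Ddit3 and -0.25 for Hspa5, and they rest on 29 to 187 G2M cells per library at 39 °C. Only the Atf4 term for S and the Hspa5 term kept their calls in all 12 alternatives. The Atf4 and Ddit3 terms for G2M and the Xbp1 term lost theirs in 6, 4 and 6 of 12.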

How the results depend on the processing

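The 7 members that passed in all cells passed in the same direction under all 21 alternatives, and the 8 that passed in G1 cells likewise. The number of list genes that passed, 94, ranged from 86 to 98, and the median log2 fold change of all genes stayed under 0.1 in size in every alternative. The replicate number as a block gave 7 members in all cells, 8 in G1, 7 in S and 7 in G2M cells, the counts without it, and 92 list genes, and it ended no member's call. Deviations of same-numbered libraries correlated at -0.089 to 0.17, so the numbers were not taken to pair samples. Phase calls were less firm: at 39 °C, 9 calls became 4 with DESeq2, and leaving out 1 library left 3 to 5 of 5 interaction calls (3 without 37 °C replicate 1 or 4, or 39 °C replicate 1, 2 or 3). The 6 shares that passed gave 0 passes with at least 2 UMIs (adjusted p from 0.0571) or without thinning, and 0 to 6 when a library was left out (6 without 37 °C replicate 3), where the smallest p leaves the call to a tie of 6 members.

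Signs turned only for differences that passed in neither setting. Xbp1 in all cells was 0.019 with totals only, 0.011 with upper-quartile factors, 0.030 without the 5% of cells with most UMIs and 0.056 with equal cells per library, and -0.081 to 0.018 without 1 library. Trib3 was 0.079 in all and 0.17 in G1 cells without the 5% of cells with most UMIs, and 0.053 in G1 cells with equal cells. Without 1 library Trib3 ranged from -0.40 to 0.091 in G1, -0.88 to 0.11 in S and -0.38 to 0.018 in G2M cells. Differences in shares, in percentage points, became 0.176 for Trib3 at 2000 UMIs, and -3.90 for Gdf15, -5.75 for Herpud1 and -4.14 for Xbp1 without thinning. Herpud1 was -0.040 with at least 2 UMIs and -0.469 to 0.442 without 1 library. The cause of these moves was not tested. Trib3 and Chac1, with 35 to 177 UMIs per library, are the members most limited by depth.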
